A study of Mus musculus with 15 samples.

Results

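The effect of a GSK3 inhibitor against that of an R-spondin was taken here as a single number per gene, the medium difference averaged over both sampled days of a mouse ES cell differentiation toward paraxial mesoderm. For each gene the log2 of array signal plus 12.6 in CDL medium minus that in RDL medium was computed at day 4 and at day 6, and the mean of the 2 differences was tested. Genes were members where both differences had the same sign, which held for 6697 of 12408 genes tested, or 54%. The signs chose the members, so that share, and the agreement of direction between days within it, are descriptions and not results. The other 5711 genes had opposite signs on the 2 days and are left out, whatever their average.

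CDL medium held CHIRON99021 (CHIR) at 1 µM and RDL medium held recombinant Rspo3 at 10 ng/ml, and the names abbreviate the additives. Both media also held 0.5% DMSO and 0.1 µM of the BMP receptor inhibitor LDN, and in both arms the cells had first had 2 days of BMP4 at 10 ng/ml. The labels write the number of the LDN compound differently from group to group, while the protocol gives a single compound. There were 4 sorted groups of 3 biological replicates, each a bulk RNA sample on an Affymetrix mouse array. CDL day 4 and RDL day 4 were E14 cells of strain 129P2 sorted for the Msgn1-repV reporter. CDL day 6 and RDL day 6 were CK35 cells of strain 129Sv sorted for Pax3-GFP. Each day therefore rests on 1 line and 1 reporter, and day, line, strain and reporter cannot be told apart; the medium difference is taken within each of them. A further 3 arrays of E14 ES cells at day 0, grown with LIF, serum and 2i (which itself contains CHIRON99021), belong to neither side and serve for reference levels. In sorted bulk RNA, fewer cells of a type and less RNA per cell cannot be told apart.

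Wnt signalling works by keeping beta-catenin from destruction, so that it enters the nucleus and acts with TCF and LEF factors on genes such as Axin2. R-spondins raise the number of Wnt receptors at the surface by drawing the ubiquitin ligases Znrf3 and Rnf43 away with Lgr receptors, and so need a Wnt ligand to act. CHIR inhibits the kinase GSK3 inside the cell, which frees beta-catenin without a ligand and also spares the other substrates of GSK3. Wnt activity is high in the posterior presomitic mesoderm, where Msgn1 is expressed, and falls as cells mature toward somites and dermomyotome, where Pax3 is expressed.

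One library stood apart. CDL day 4 replicate 1 held a median of 19% of the ES cell signal (quartiles 16.6% and 22.8%) over 48 genes that were above 500 in ES cells and below 50 in all RDL arrays, while the other 5 CDL arrays held between -0.0503% and 0.227%. Its mean correlation with the ES arrays was 0.899, against 0.839 and 0.840 for the other CDL day 4 arrays, and the summed signal of 23 pluripotency genes reached 22657 in it. The average of each of the 83 genes named by rule and the count of each gene list were also computed without this array, and list counts are given where they changed. Within its own group RDL day 6 replicate 1 correlated least, at a mean of 0.978. Array medians lay between 29.4 and 31.2, and no array had a signal of 0 for any probe set, the lowest being 3.39.

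Of the 12408 genes, 622 had a difference of the same sign on both days and passed limma's test of the average at an adjusted p under 0.05 (Benjamini-Hochberg over all genes), which is 5.01% of genes tested. They were 342 genes higher in CDL (2.76%) and 280 lower (2.26%). Effects were mostly modest, with a median absolute average of 0.48 on the log2 scale, and 17 of the higher and 24 of the lower genes differed at least 2-fold. The 3 CDL arrays lay clear of the 3 RDL arrays on both days for 207 of the higher and 149 of the lower genes, while such a separation was seen in 2.39% and 1.76% of all genes. Another 108 genes passed the test of the average with opposite signs on the 2 days and were not counted. Leaving out RDL day 6 replicate 1 gave 432 higher and 448 lower genes, and leaving out CDL day 4 replicate 1 gave 313 and 257. Nearest to the sign rule were Fam149a inside it, with a day 4 difference of -0.0029 and an average of -0.33, and Fam171b outside it, with a day 6 difference of -0.0014 and an average of 0.43.

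The average does not mean that both days contributed alike. Of the 622 genes, 64 also passed on each day alone, which is 0.516% of genes tested, 157 passed on day 4 only, 284 on day 6 only and 117 on neither. The 64 were 15.9% of the 402 genes called at day 4 (3.24% of genes tested) and 8.77% of the 730 called at day 6 (5.88%), and 23 further genes were called on both days in opposite directions. In 263 of the 622 the smaller daily difference was at least 0.5 of the larger, and day 6 gave the larger one in 367. The test of the difference between days called 120 of them, against 3.98% of all genes. Across all genes tested, the day 4 and day 6 differences correlated at r = 0.10, a description over genes that share the same 12 arrays.

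**Figure D1:**
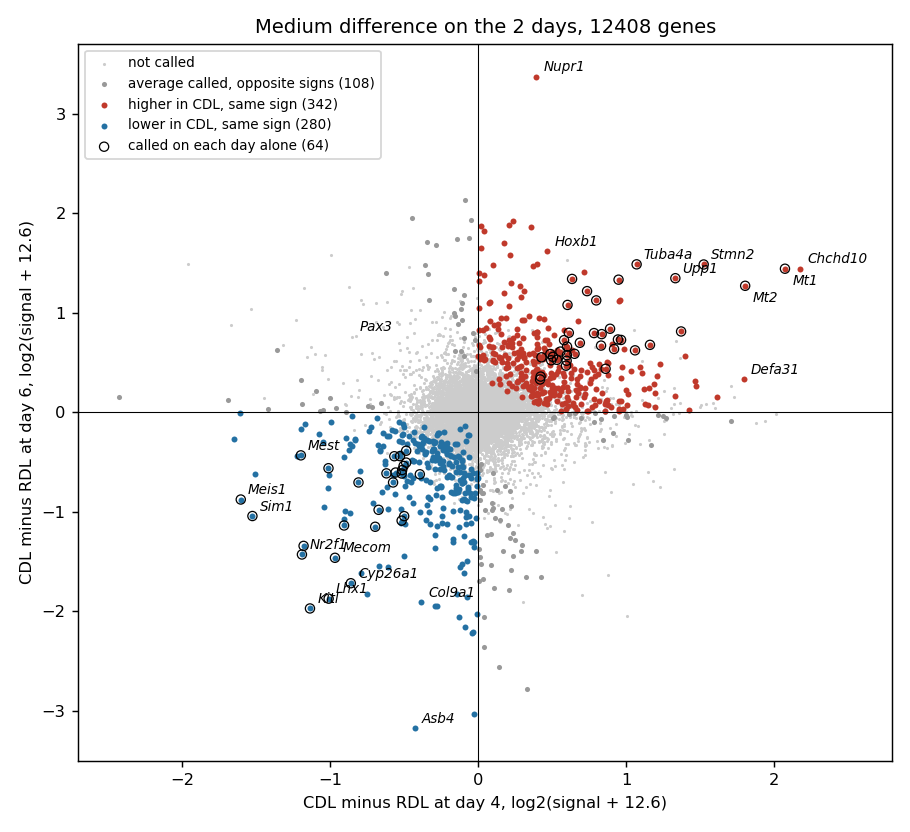
Medium difference (CDL minus RDL, log2 scale) at day 4 on the horizontal axis and at day 6 on the vertical axis for 12408 genes. Red marks the 342 genes called higher and blue the 280 called lower in the average with the same sign on both days, dark grey the 108 called with opposite signs, and black rings the 64 called on each day alone. Genes such as Mt1, Stmn2 and Kitl lie near the diagonal, while Nupr1, Asb4 and Defa31 lie near an axis.

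The genes behind the reporters were read in the sorted arrays. No reporter-negative or unsorted differentiated sample is at hand, so these values do not check the sorts. Msgn1, the presomitic mesoderm transcription factor behind the day 4 reporter, had signals of 366, 334 and 312 in CDL at day 4, against 241, 198 and 148 in RDL. At day 6 it was low in both media, at 44.3, 43.9 and 43.6 in CDL and 29.0, 31.1 and 25.9 in RDL. All CDL arrays lay above all RDL arrays on both days, and the averaged difference was 0.61 ± 0.10 (SE; adjusted p = 0.00247). Pax3, the dermomyotome factor behind the day 6 reporter, went opposite ways, at -0.85 on day 4 and 0.76 on day 6, with an adjusted p of 0.000925 for the difference between days, so it is not a member and its average of -0.04 describes neither day.

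The promoters of 4 genes are shown because they are the 2 metallothioneins among the 12 largest increases free of overlap between media and the retinoic acid genes among the decreases. Sequences are from RefSeq on GRCm38.p6, 250 bases before the annotated start, read on the gene's own strand from 5′ to 3′. In Mt1 (chr8:94178839-94179088, plus strand) and Mt2 (chr8:94172368-94172617, plus strand) capitals mark the core of the metal response element, TGCACNC or TGCGCNC on either strand. In Cyp26a1 (chr19:37697558-37697807, plus strand) and Rarb (chr14:16575477-16575726, minus strand) capitals mark a direct repeat. It is GTTCA and AGTTCA with any 5 bases between them on either strand, a strict form of the retinoic acid response element.
Mt1: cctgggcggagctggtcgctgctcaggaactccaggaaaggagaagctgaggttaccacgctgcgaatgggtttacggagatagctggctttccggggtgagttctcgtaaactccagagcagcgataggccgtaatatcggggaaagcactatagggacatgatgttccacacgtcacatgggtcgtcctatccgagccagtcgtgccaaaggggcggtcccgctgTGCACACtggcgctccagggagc
Mt2: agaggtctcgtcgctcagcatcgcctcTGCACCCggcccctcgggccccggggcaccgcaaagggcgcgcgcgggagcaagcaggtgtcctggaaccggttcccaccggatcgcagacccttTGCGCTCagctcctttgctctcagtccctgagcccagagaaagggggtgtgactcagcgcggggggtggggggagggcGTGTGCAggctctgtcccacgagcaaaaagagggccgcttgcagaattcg
Cyp26a1: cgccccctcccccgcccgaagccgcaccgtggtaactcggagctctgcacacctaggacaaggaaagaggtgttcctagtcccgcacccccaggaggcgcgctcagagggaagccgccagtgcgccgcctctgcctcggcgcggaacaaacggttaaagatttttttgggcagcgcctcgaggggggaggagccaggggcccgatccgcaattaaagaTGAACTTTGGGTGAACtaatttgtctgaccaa
Rarb: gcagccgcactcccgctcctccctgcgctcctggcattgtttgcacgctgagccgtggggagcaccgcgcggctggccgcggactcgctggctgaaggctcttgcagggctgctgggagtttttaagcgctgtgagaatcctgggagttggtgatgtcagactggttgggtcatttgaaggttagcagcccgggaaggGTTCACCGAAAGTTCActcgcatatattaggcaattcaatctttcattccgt
The windows searched held 300 bases, the 250 printed and 50 after the start. Mt1 had 3 metal cores in its window and Mt2 had 4, and 1.97% of 32851 RefSeq promoter windows held at least 3, while 25.7% held at least 1. The retinoic acid repeat occurred in 11 of the 32851 windows, or 0.0335%, among them those of Cyp26a1 and Rarb. Its letters were set after values were seen, so its rarity and these 2 matches describe the letters and support nothing further. A match describes letters in a window and is not a measured binding site, and the table held windows for 61 of the 83 genes named here.

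The metallothioneins Mt1 and Mt2, small cysteine-rich proteins that bind zinc and copper and are known to be induced by metals, rose in CDL on both days. Mt1 signals were 1043, 1109 and 1110 in CDL at day 4, against 155, 273 and 359 in RDL. At day 6 they were 1101, 1006 and 1308 in CDL, against 461, 362 and 407 in RDL. The CDL arrays kept to a narrow band on both days, near the ES cell level of 1498 ± 79.6 (SD, n = 3), and never overlapped RDL. The averaged difference was 1.76 ± 0.16 (SE; adjusted p = 2.76e-05), and it was 1.77 without CDL day 4 replicate 1. Averaging Mt1 over all its probe sets gave 1.00, since its other probe set was dim. Mt2 gave 980, 734 and 759 in CDL at day 4, against 161, 236 and 297 in RDL, and 511, 704 and 753 in CDL at day 6, against 304, 232 and 251 in RDL. Its average of 1.54 ± 0.15 (adjusted p = 4.96e-05) was again free of overlap between media on either day. Of the 10 tested genes in the metallothionein and zinc list these 2 were the ones that rose and none fell. Over all genes tested 2.76% rose and 2.26% fell, and each list count below is to be read beside these shares. Mt3 (0.07), the zinc exporter Slc30a1 (0.01) and the metal-sensing transcription factor Mtf1 (0.03) did not pass, and the list median was 0.07, against 0.00 over all genes.

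Some other genes that rose on both days belonged to no list. Stmn2, a microtubule-destabilising protein best known in neurons, gave 1126, 900 and 887 in CDL at day 4, against 368, 305 and 312 in RDL. At day 6 its level was lower in both media, with 262, 147 and 162 in CDL and 93.5, 39.3 and 50.6 in RDL. The daily differences of 1.52 and 1.49 were nearly equal although the levels were not, and the average was 1.51 ± 0.17 (SE, adjusted p = 0.000202). This near equality held for the probe set used. The other, dimmer probe set of Stmn2 gave 1.15 at day 4 and 0.33 at day 6, and averaging over both gave 1.12. Tuba4a, an alpha-tubulin, differed with little spread between replicates. Its signals were 3387, 3058 and 3146 in CDL at day 4, against 1529, 1454 and 1559 in RDL, and 650, 640 and 655 in CDL at day 6, against 255, 204 and 214 in RDL. The average was 1.28 ± 0.07 (adjusted p = 1.46e-06). Other probe sets of Tuba4a gave 1.12 and 0.087, and averaging over all gave 0.83. Upp1, a uridine phosphorylase, gave 1553, 840 and 665 in CDL at day 4, against 379, 360 and 375 in RDL. Day 6 signals were 963, 641 and 752 in CDL, against 415, 249 and 252 in RDL. Its highest value was in CDL day 4 replicate 1, and the average of 1.34 ± 0.19 (adjusted p = 0.00102) became 1.17 without it. Uap1l1, a homologue of a UDP-N-acetylhexosamine pyrophosphorylase, averaged 1.09 ± 0.07 (adjusted p = 2.78e-06), with 1.37 at day 4 and 0.81 at day 6. Its 2 daily differences differed from each other (adjusted p = 0.0405 in limma's test of the difference between days).

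Chchd10, Fabp3 and Dmd rose in the average, and their size depended most on CDL day 4 replicate 1. Chchd10, a protein of the mitochondrial intermembrane space, gave 1953, 448 and 308 in CDL at day 4, against 127, 139 and 135 in RDL, and 420, 527 and 376 in CDL at day 6, against 158, 154 and 145 in RDL. The remaining 2 CDL day 4 arrays still lay above every RDL array, and the average was 1.81 ± 0.33 (adjusted p = 0.00468) with all arrays and 1.42 without that one. Fabp3, a fatty acid binding protein, averaged 1.04 with all arrays and 0.80 without it, and dystrophin (Dmd) 1.06 and 0.85. The call held without that array for each of the 3.

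Hoxb1 and Defa31 completed the 12 largest increases with unequal days. Hoxb1, the homeobox gene of the early posterior primitive streak and rhombomere 4, gave 2139, 2125 and 1859 in CDL at day 4, against 1418, 1716 and 1300 in RDL. At day 6 it gave 213, 278 and 159 in CDL, against 45.8, 75 and 63.3 in RDL. Media did not overlap on either day, and the average of 1.04 ± 0.14 (adjusted p = 0.000506) combined 0.47 and 1.62. The probe set that the platform annotation assigns to Defa31, an alpha-defensin with near-identical copies that the array may not separate, averaged 1.06 and was led by day 4 (1.80, against 0.33 at day 6).

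**Figure D2:**
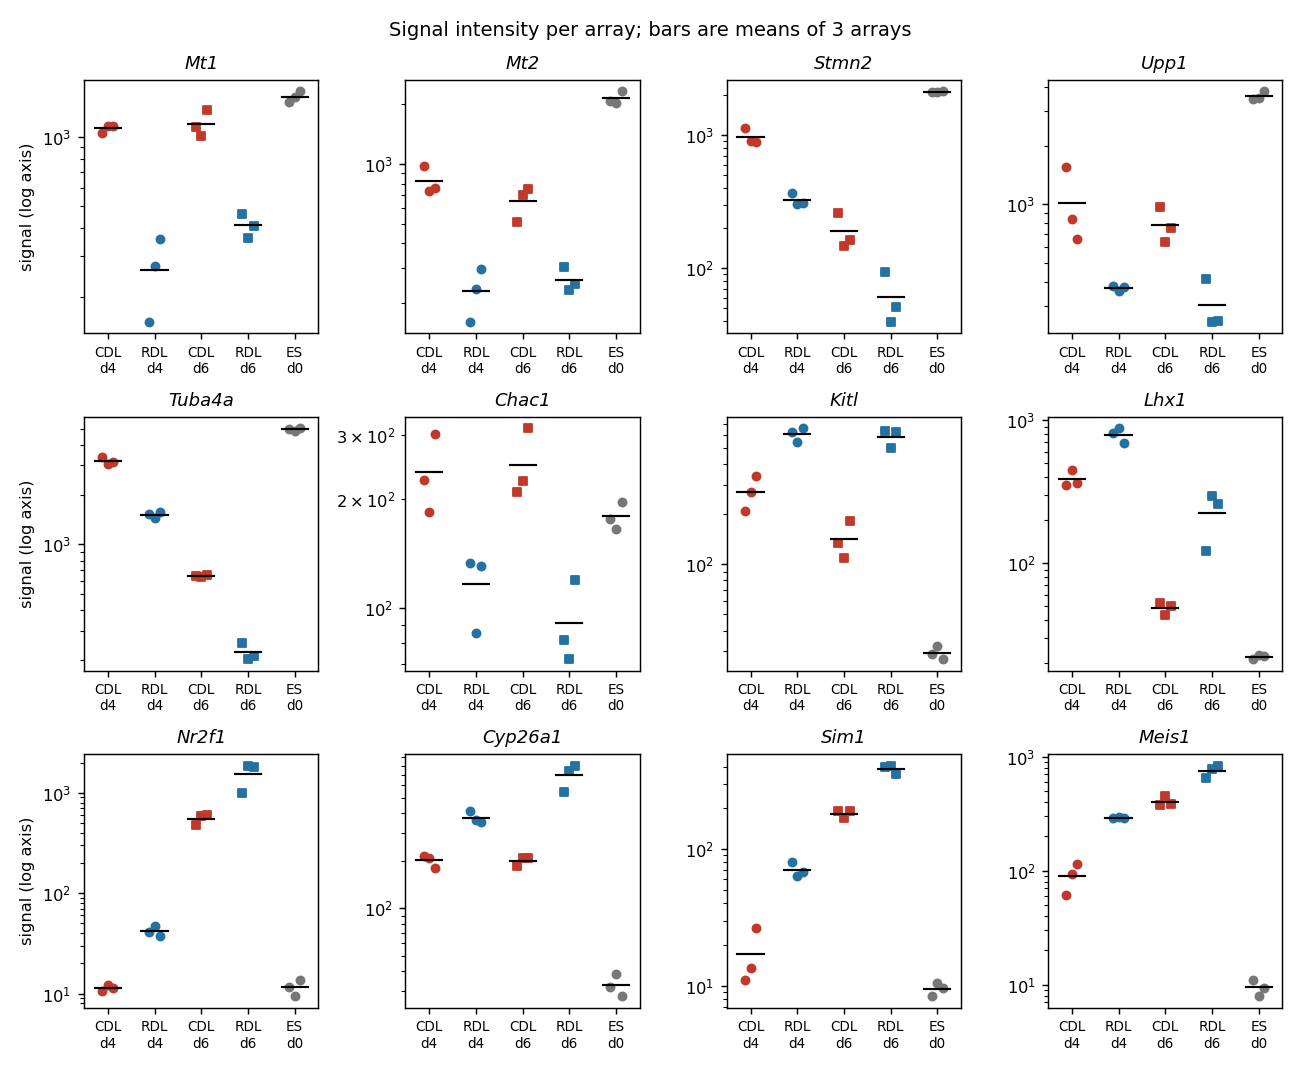
Signal intensity on a log axis for 12 genes in each of the 15 arrays, with CDL in red, RDL in blue and ES cells in grey, circles for day 4 and day 0 and squares for day 6; black bars are means of 3 arrays. In the 6 genes from Mt1 to Chac1 every CDL array lies above every RDL array of its day, and in the 6 from Kitl to Meis1 below.

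Kitl, the ligand of the receptor tyrosine kinase Kit, had one of the largest decreases. It gave 210, 271 and 339 in CDL at day 4, against 619, 545 and 655 in RDL. Values at day 6 were 133, 109 and 183 in CDL, against 630, 503 and 620 in RDL. RDL levels were alike on the 2 days while CDL lay below them on both, with an average of -1.55 ± 0.13 (SE; adjusted p = 2.58e-05). Pmp22, a small tetraspan membrane protein first described in myelin, followed the same course with an average of -1.26 ± 0.10 (adjusted p = 1.06e-05) and daily differences of -1.18 and -1.34.

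The transcription factor genes Nr2f1, Meis1, Sim1 and Mecom were among the 12 largest decreases. Nr2f1, an orphan nuclear receptor of the COUP-TF family, gave 10.6, 12.3 and 11.3 in CDL at day 4, which was the ES cell level, against 41.3, 47.6 and 37.6 in RDL. At day 6 it had become abundant in both media, with 474, 583 and 600 in CDL and 1008, 1873 and 1794 in RDL. The daily differences were -1.19 and -1.43, but the day 4 CDL signals lay below the added constant of 12.6, which holds down a log2 difference, so the 2 days are not compared (average -1.31 ± 0.14, adjusted p = 0.000103). Meis1, a TALE homeodomain partner of Hox proteins, gave 61.8, 92.9 and 115 in CDL at day 4, against 289, 294 and 290 in RDL. At day 6 it gave 380, 452 and 382 in CDL, against 654, 774 and 838 in RDL. CDL cells at day 6 thus exceeded RDL cells at day 4, but within each day CDL was lower (average -1.24 ± 0.12, adjusted p = 5.32e-05). Sim1, a bHLH-PAS factor of the lateral dermomyotome, gave 11, 13.4 and 26.4 in CDL at day 4, against 80.8, 63.1 and 68.0 in RDL, and 189, 168 and 189 in CDL at day 6, against 401, 410 and 355 in RDL. Its average of -1.28 ± 0.11 (adjusted p = 2.76e-05) became -0.73 when all its probe sets were averaged. Mecom, a zinc finger factor also called Evi1, averaged -1.22 ± 0.11 (adjusted p = 2.76e-05).

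Lhx1 and Eomes were lower as well. Lhx1, a LIM homeodomain factor of the node, the lateral and the intermediate mesoderm, gave 351, 447 and 364 in CDL at day 4, against 808, 875 and 692 in RDL. Day 6 signals were 52.5, 43.1 and 50.3 in CDL, against 122, 295 and 260 in RDL. The average was -1.44 ± 0.17 (adjusted p = 0.000224), and the lowest RDL day 6 value was that of replicate 1, the array least like its group. Eomes, the T-box factor of early mesendoderm, averaged -1.29 ± 0.19 (adjusted p = 0.00138) at low levels, with a highest signal of 50.9 in any CDL array and a lowest of 53.9 in any RDL array.

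Asb4, Col9a1 and Mir99ahg met the rule but were led by day 6. Asb4, which carries ankyrin repeats and a SOCS box, gave 115, 94.2 and 141 in CDL at day 6, against 1371, 976 and 1121 in RDL, while at day 4 it gave 26.6, 34.0 and 27.7 in CDL, against 48.7, 35.7 and 47.7 in RDL. Its average of -1.80 ± 0.11 (adjusted p = 2.78e-06) therefore combined -0.43 and -3.18, which differed from each other (adjusted p = 3.61e-05). The cartilage collagen gene Col9a1 combined -0.39 and -1.91. Mir99ahg, the host transcript of the mir-99a and let-7c microRNAs, had a day 4 difference of only -0.03 at signals below 7 and -2.22 at day 6, so its average rests on day 6. Averaged over its probe sets its day 4 difference was 0.013, which takes it out of the same-sign set.

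**Figure D3:**
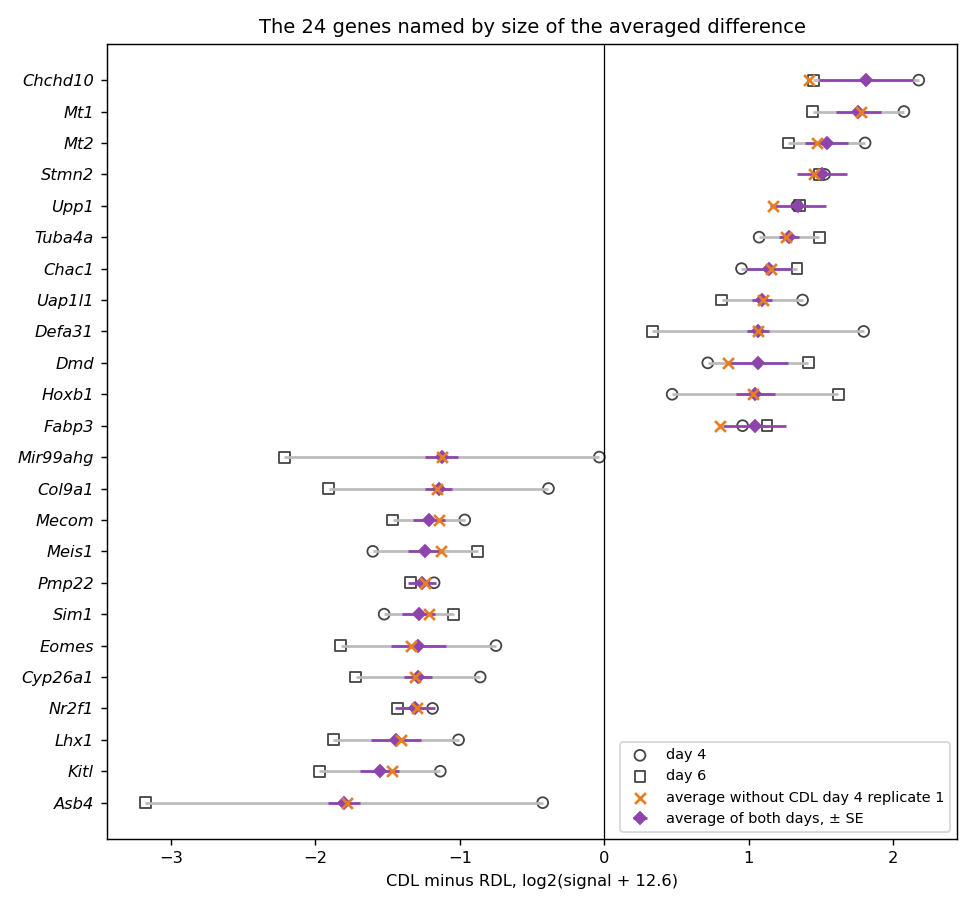
Averaged medium difference (purple diamonds, bars ± SE) of the 24 genes named by size, with the day 4 (open circles) and day 6 (open squares) differences and the average without CDL day 4 replicate 1 (orange crosses), all CDL minus RDL on the log2 scale. The day symbols nearly coincide for Stmn2, Upp1 and Pmp22 and lie far apart for Asb4, Mir99ahg, Col9a1 and Defa31; Chchd10 moves most when the array is left out.

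Canonical Wnt targets were called in both directions. Of 21 tested, 4 rose and 2 fell, where 2.76% and 2.26% of all genes did. The list median was 0.27, against 0.00 over all genes. Nkd1, a feedback inhibitor of Dishevelled, rose by 0.79 ± 0.18 (adjusted p = 0.0188), with 0.10 at day 4 and 1.48 at day 6, and lost its call without RDL day 4 replicate 1 or CDL day 4 replicate 2 or 3. Other probe sets of Nkd1 gave 0.56, 0.17 and 0.14, and averaging over all gave 0.41. Ccnd1 (cyclin D1) rose by 0.44 and Cdx1, a posterior homeobox gene, by 0.39. The R-spondin gene Rspo3 itself, whose protein was the additive of the other medium, rose by 0.46 ± 0.11 (adjusted p = 0.0186) in CDL, with 2003, 2316 and 2304 in CDL at day 4, against 1824, 1642 and 1735 in RDL. At day 6 its transcript gave 163, 111 and 167 in CDL, against 101, 78.7 and 99.6 in RDL; the media never overlapped, but leaving out any of 4 arrays (RDL day 4 replicate 2, CDL day 4 replicate 2, CDL day 6 replicates 1 and 3) ended the call. Bmp4 fell by 0.47. Lgr5 fell by 0.25 at a highest signal of 38.5, and its call was lost on leaving out any of 7 arrays. Its probe set passed the signal filter only through RDL day 6, at a mean of 33.9, against 22.6 in CDL at day 6. With no filter another probe set stood for Lgr5, with an average of -0.012 and opposite signs, 0.041 and -0.065. Axin2, the general Wnt feedback gene, had 0.60 ± 0.17 and did not pass (adjusted p = 0.0638). Without CDL day 4 replicate 1 its average was 0.71 and passed (adjusted p = 0.02), as did that of the posterior homeobox gene Cdx2 at 0.45 (adjusted p = 0.0143), which makes 6 higher and 2 lower. With all arrays neither did Lef1 pass, at 0.38 ± 0.15 (adjusted p = 0.192), nor Sp5 at 0.27 ± 0.15 (adjusted p = 0.391). The Wnt antagonist Dkk1 had opposite signs, 0.70 and -1.84, and Cdx4 passed the average at 0.39 but had 0.79 and -0.01.

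In the R-spondin machinery, 1 of 10 tested genes rose and 2 fell, where 2.76% and 2.26% of all genes did. Besides Rspo3 and Lgr5, the latter tested through RDL day 6 alone, this was Gpc3, a glypican that binds Wnt and Hedgehog ligands at the cell surface. Gpc3 gave 1744, 2128 and 2123 in CDL at day 4, against 2951, 2726 and 2700 in RDL, and 2028, 2014 and 1864 in CDL at day 6, against 3139, 2772 and 2521 in RDL. The daily differences were -0.49 and -0.51, so the average of -0.50 ± 0.07 (adjusted p = 0.00097) described both days. The receptor gene Lgr4 (0.08), the ligase gene Znrf3 (0.27) and the co-receptor genes Lrp5 (0.18) and Lrp6 (-0.18) did not pass.

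Genes of the integrated stress response, the ATF4-driven programme of amino acid supply and stress adaptation, were called in 1 direction. Of 20 tested, 6 rose and 0 fell, where 2.76% and 2.26% of all genes did, and the median was 0.33. Chac1, a glutathione-degrading enzyme and ATF4 target, gave 226, 184 and 302 in CDL at day 4, against 133, 85.6 and 131 in RDL, and 209, 223 and 312 in CDL at day 6, against 81.9, 72.4 and 119 in RDL, an average of 1.14 ± 0.16 (SE; adjusted p = 0.000834). Vldlr, a lipoprotein and reelin receptor, had equal daily differences of 0.69 and 0.70. Trib3, a pseudokinase that restrains ATF4, rose by 0.48 and the glycoprotein hormone gene Stc2 by 0.38. Nupr1, a small stress-induced chromatin protein, was led by day 6, with 839, 446 and 722 in CDL, against 72.7, 44.9 and 39.6 in RDL, whereas at day 4 it gave 101, 63.9 and 56.4 in CDL, against 49.8, 61.9 and 44.7 in RDL. Its average of 1.88 thus combined 0.39 and 3.38. The cationic amino acid transporter gene Slc7a3 had 0.21 and 1.88, and without CDL day 4 replicate 1 its day 4 difference was -0.13, which takes it out of the same-sign set and leaves 5 of the 6. Atf4 itself (0.10), Ddit3 (0.13) and the asparagine synthetase gene Asns (0.38, adjusted p = 0.0644) did not pass.

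Retinoic acid, made by Aldh1a2 and removed by Cyp26 enzymes, opposes the posterior Wnt and FGF domain in the embryo. Of 11 tested pathway genes, 1 rose and 2 fell, where 2.76% and 2.26% of all genes did. Cyp26a1, the degrading enzyme with the repeat printed above, gave 213, 208 and 181 in CDL at day 4, against 412, 362 and 350 in RDL. At day 6 it gave 185, 208 and 208 in CDL, against 548, 742 and 800 in RDL. CDL levels were alike on both days while RDL levels were higher at day 6, and the average was -1.29 ± 0.10 (SE; adjusted p = 1.04e-05). Rarb, a retinoic acid receptor gene with the same repeat, gave 14.5, 38.0 and 24.1 in CDL at day 4, against 66.7, 95.7 and 61.4 in RDL, and 135, 120 and 108 in CDL at day 6, against 179, 161 and 165 in RDL. Its average was -0.83 ± 0.14 (adjusted p = 0.00305), with -1.22 and -0.44 on the 2 days. The binding protein gene Crabp1 rose by 0.71, nearly all of it at day 6 (0.04 and 1.38), and its day 4 sign turned on leaving out CDL day 4 replicate 2 or 3. Aldh1a2 passed the average at 0.75 but had -0.45 at day 4 and 1.95 at day 6, and the reductase gene Dhrs3 had -0.46 and 0.60, so neither is a member.

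Hox genes, which pattern the body axis, were counted in 2 lists by position in their clusters. Of 10 tested genes of groups 6 to 13, 0 rose and 4 fell, with a list median of -0.28, and of 13 in groups 1 to 5, 1 rose (Hoxb1) and 1 fell (Hoxc5), with a median of -0.05. Over all genes tested 2.76% rose and 2.26% fell, and no test of the difference between the 2 lists was made. Hoxc8 gave 24.7, 43.2 and 52.1 in CDL at day 4, against 72.2, 69.3 and 105 in RDL, and 30.1, 36.6 and 46.8 in CDL at day 6, against 61.9, 106 and 104 in RDL, an average of -0.94 ± 0.16 (adjusted p = 0.0036). Hoxa9 fell by 0.82 ± 0.14 (adjusted p = 0.00366) and Hoxc5 by 0.64 ± 0.08 (adjusted p = 0.000564), with -0.57 and -0.71 on the 2 days in Hoxc5. Hoxd9 (-0.47) and Hoxb6 (-0.46) each lost the call on leaving out any of 7 of the 12 arrays, and Hoxd9 was among those that lost it without CDL day 4 replicate 1, which left 3 of the 4. Hoxb9 (0.16), Hoxa7 (-0.04) and Hoxc6 (-0.05) did not pass.

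Imprinted genes, expressed from 1 parental allele and many of them tied to embryonic growth, were called in 1 direction too. Of 19 tested, 0 rose and 6 fell, where 2.76% and 2.26% of all genes did, with a median of -0.26. Mest gave 267, 318 and 315 in CDL at day 4, against 607, 735 and 775 in RDL, and 4286, 4913 and 4509 in CDL at day 6, against 5580, 6676 and 6291 in RDL. Media were apart on both days, and the average was -0.82 ± 0.08 (adjusted p = 5.51e-05). The growth factor gene Igf2 fell by 0.65, with -1.08 and -0.22, and the Notch-like ligand gene Dlk1 by 1.09, with -0.13 and -2.06. Sgce fell by 0.47, Ndn by 0.42 and Nnat by 0.32. Without CDL day 4 replicate 1, 5 of the list were called.

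Matrix and mesenchymal genes were among the decreases. Of 15 collagen genes tested, 0 rose and 4 fell, where 2.76% and 2.26% of all genes did, with a median of -0.17. Col3a1, a fibrillar collagen of loose connective tissue, gave 171, 218 and 184 in CDL at day 4, against 238, 274 and 277 in RDL. Values at day 6 were 3715, 4828 and 4393 in CDL, against 6094, 7013 and 7276 in RDL, and the average was -0.55 ± 0.09 (adjusted p = 0.00226). The cartilage collagen gene Col2a1 fell by 0.68 ± 0.13 (adjusted p = 0.00538) and Col1a1 by 0.51, and the call of Col1a1 was lost on leaving out any of 6 arrays. Of 20 mesenchymal and fibroblast genes, 0 rose and 4 fell, namely Lum, Prrx1, Sparc and Postn. Lum had -0.039 at day 4, at means of 10.9 in CDL and 11.5 in RDL, and -2.22 at day 6. Postn had -0.095 at day 4 and -0.70 at day 6. It passed the signal filter only through RDL day 6, at a mean of 44.7, against 22.2 in CDL at day 6. Of the 4, Sparc had no overlap of the media on either day, with -0.33 and -1.0. Prrx1, a limb and lateral plate homeobox gene, had a day 4 difference of -0.0045 and -2.03 at day 6, and 4 of the 12 omissions turned its day 4 sign. The summed signal of the 20 genes ran from 18058 to 20283 in CDL at day 4, against 20608 to 20812 in RDL, and from 13444 to 14410 in CDL at day 6, against 17741 to 18689 in RDL. As feeder fibroblasts were used for the ES cells, this list also stands for feeder cells, whose part in these values was not tested.

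Epithelial genes went the other way. Of 13 tested, 6 rose and 1 fell, where 2.76% and 2.26% of all genes did. The median was 0.36, and 0.27 without CDL day 4 replicate 1, the counts then being 6 and 1 again. Cldn4, a tight junction claudin, gave 212, 171 and 172 in CDL at day 4, against 52.8, 68.4 and 99.3 in RDL, and 39.2, 58.9 and 36.1 in CDL at day 6, against 28.9, 26.8 and 27.6 in RDL, an average of 0.86 ± 0.13 (adjusted p = 0.0015). Spint1, an inhibitor of membrane serine proteases, had 0.61 and 0.62 on the 2 days. The adhesion molecule gene Epcam rose by 0.55, Spint2 by 0.52 and the splicing regulator gene Esrp1 by 0.41, while the keratin gene Krt18 fell by 0.48. Cdh1, E-cadherin, averaged 0.72 but had 1.43 at day 4 and 0.02 at day 6, and lost the call on leaving out any of 4 arrays. These genes are also expressed in ES cells, where Cldn4 gave 276, 256 and 300. The summed signal of the 13 genes ran from 7548 to 9228 in CDL at day 4, against 5576 to 7310 in RDL. At day 6 the order of the sums was reversed, with 1314 to 1822 in CDL, against 1971 to 2298 in RDL.

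Pluripotency and germline genes mark the undifferentiated cells a sort could hold. Of 23 pluripotency genes, 2 rose and 0 fell, where 2.76% and 2.26% of all genes did. The median was 0.61, and 0.21 without CDL day 4 replicate 1. Their summed signal was between 8035 and 22657 in CDL at day 4, against 6077 to 6646 in RDL, and between 2767 and 3661 in CDL at day 6, against 2239 to 2519 in RDL, with 55320 to 55937 in ES cells. Klf4 gave 707, 372 and 300 in CDL at day 4, against 287, 371 and 448 in RDL, and 434, 544 and 488 in CDL at day 6, against 91.4, 114 and 161 in RDL. Without CDL day 4 replicate 1 its day 4 difference was -0.11, which takes it out of the same-sign set, while the growth factor gene Fgf4, in that set with all arrays but not called, passed at 0.29 (adjusted p = 0.0463). Pou5f1 averaged 0.89 (adjusted p = 0.0398) with 0.16 at day 6, and its call was lost on leaving out any of 8 arrays. Of 8 germline genes, Sycp3 was the 1 called, at 0.51 (adjusted p = 0.00549), with 0.98 at day 4 and 0.03 at day 6, where its signals were below 8 in both media. It did not pass with the filter at the 75th percentile (adjusted p = 0.11), and its average was 0.23 with 4 times the constant.

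Many of the largest increases were also bright in ES cells. Stmn2 had 2137, 2127 and 2148 in ES cells, Upp1 3490, 3502 and 3805, and Mt2 2089, 2023 and 2331, each above every CDL array. Among the 12 largest named, mean ES signal also exceeded both CDL means in Chchd10, Tuba4a, Mt1, Fabp3 and Dmd. It did not in Chac1, Uap1l1, Defa31 or Hoxb1. ES means were at least 2 times both RDL means in 96 of the 342 higher genes (28.1%). Such genes were 9.78% of all genes and 0.71% of lower genes. Without CDL day 4 replicate 1 they were 29.4% of higher and 6.23% of lower genes. RDL signals enter both the calls and these shares. The part of undifferentiated cells in these differences was not tested beyond leaving out that array.

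Lineage lists gave smaller counts, to be read beside the 2.76% of all genes that rose and the 2.26% that fell. In the posterior presomitic list, 2 of 15 rose (Msgn1 and Rspo3) and 1 fell (Cyp26a1), while 3 others, among them the Notch ligand gene Dll1 with -0.09 and 2.14, passed the average with opposite signs. Without CDL day 4 replicate 1, Dll1 was called too, which made 3 higher. In the anterior presomitic and somite list, 0 of 18 rose and 2 fell (Meox2, lost on leaving out any of 8 arrays, and Cer1). Without CDL day 4 replicate 1 the count of lower genes was 1. But 12 of the 18 differed between days, against 3.98% of all genes, so an average over days describes few of them. In the dermomyotome list 0 of 11 rose and 3 fell, namely Sim1, the receptor gene Met (-0.68) and the co-activator gene Eya1 (-0.64), the last 2 led by day 4. In the sclerotome list the Hedgehog receptor and target gene Ptch1 rose by 0.77 ± 0.16 (adjusted p = 0.0109) and the Hedgehog effector gene Gli1 by 0.52 ± 0.12 (adjusted p = 0.0207), while Sox9 fell by 0.72 ± 0.17 (adjusted p = 0.0216), of 7 tested. Averaged over its probe sets Ptch1 had 0.30 and did not pass (adjusted p = 0.0527), as its other 2 probe sets gave 0.044 and 0.084. Gli1 lost its call on leaving out any of 5 arrays and Sox9 any of 3. The ligand gene Shh, on the notochord list, was the 1 of 4 that rose, with 0.18 at day 4 and 1.71 at day 6, and without CDL day 4 replicate 1 Cdx2, which that list also holds though it is no notochord marker, made it 2.

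Lists of other mesoderm and germ layers were short, and in some the share that fell was above that of all genes, of which 2.76% rose and 2.26% fell. Medians were -0.31 in the lateral plate and cardiac list, -0.16 in intermediate mesoderm and -0.38 in endoderm. Of 10 lateral plate and cardiac genes 3 fell (Gata6, Bmp4 and Prrx1), of 5 intermediate mesoderm genes 2 (Lhx1 and Osr1), of 10 endoderm genes 3 (Cer1, Gata6 and Dab2) and of 9 endothelial and blood genes 1 (Kdr), with 0 higher in each, although Lmo2, on the endothelial list, was called higher without CDL day 4 replicate 1. Without that array the myosin light chain gene Myl7 was called lower as well, at -0.65, which made 4 on the lateral plate and cardiac list. Gata6, a zinc finger factor of endoderm and heart, gave 40.2, 36.5 and 33.0 in CDL at day 4, against 52.5, 57.5 and 63.5 in RDL, and 34.2, 45.2 and 25.2 in CDL at day 6, against 69.9, 82.9 and 85 in RDL, an average of -0.74 ± 0.10 (adjusted p = 0.000546). Summed endoderm signal was 1609 to 1911 in CDL at day 4, against 1363 to 1625 in RDL, and 949 to 1135 in CDL at day 6, against 1948 to 2642 in RDL. No member was called among 10 neural and 8 neural crest genes. Of 12 muscle genes, Myl1 rose by 0.53 on both days (0.59 and 0.47) and Tnnc1 fell by 0.60.

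Of the signalling and housekeeping lists, BMP targets and mitosis genes had 3 calls each, with list medians of -0.21 and -0.24. The others had 2 or fewer. Over all genes 2.76% rose and 2.26% fell, and a single call in a list is not a result about the list. Of 13 BMP targets, 0 rose and 3 fell (Msx1, Smad6 and Grem1), and 1 was called without CDL day 4 replicate 1; each of the 3 lost its call on leaving out any of at least 7 arrays. Of 17 mitosis genes 0 rose and 3 fell (Kif23, Mki67 and Bub1b, by 0.33 to 0.37). Kif23 lost its call on leaving out any of 6 arrays and Bub1b any of 5, while Mki67, with -0.0046 at day 4, left the same-sign set in 3 omissions. Without CDL day 4 replicate 1 the 3 were Kif23, Bub1b and Top2a. Of 18 replication genes 0 were called. Among 14 FGF and ERK targets Fos alone rose, and it was joined by Klf4 among 17 immediate early genes; both lists had 0 without CDL day 4 replicate 1. The NRF2 target list had 1 of 13 higher (Srxn1), which was also lost without that array, and the p53 list had 1 of 13 lower (Pmaip1). No member passed in the average with the same sign on both days among 16 Notch and clock genes, 16 glycogen genes, 16 cholesterol synthesis genes and 16 glycolysis genes. Without that array Dll1 was called higher on the Notch and clock list and the glucose transporter gene Slc2a3 lower on the glycolysis list.

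**Figure D4:**
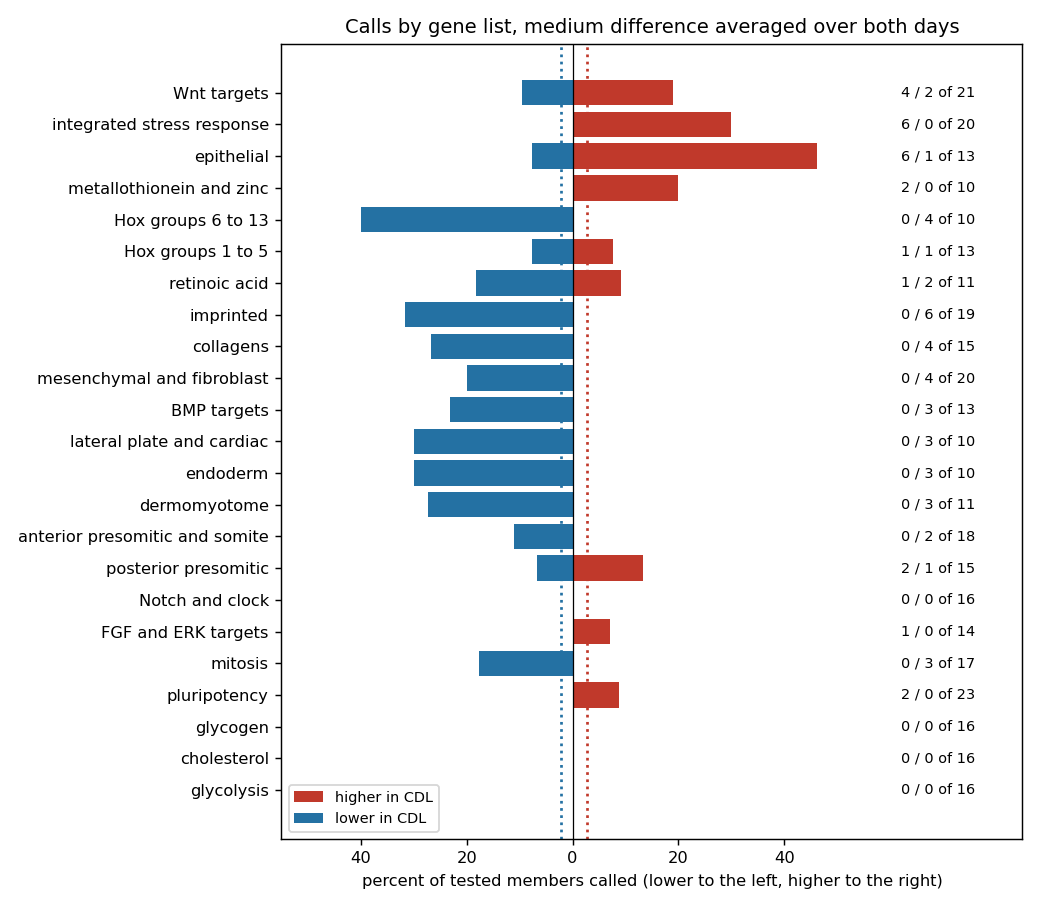
Percent of the tested members of 23 gene lists called higher in CDL (red, to the right) and lower (blue, to the left) in the average with the same sign on both days; numbers at the right give higher / lower of tested. Dotted lines mark the shares among all genes tested, 2.76% higher and 2.26% lower. Epithelial and stress response lists extend to the right, and Hox groups 6 to 13, imprinted, endoderm, lateral plate and cardiac, dermomyotome and collagen lists to the left.

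Of the 64 genes called on each day alone, 37 were higher and 27 lower. Besides those described, the higher ones included Fst, the activin antagonist follistatin (0.99), the class I histocompatibility gene H2-K1 (0.98), the transcription factor gene Klf15 (0.96), the ISG15 protease gene Usp18 (0.92), the endocytic adaptor gene Amph (0.87) and the peptide hormone precursor gene Pomc (0.84). The lower ones included the sialomucin gene Podxl (-1.02), the membrane protein gene Emp1 (-0.92), the fibril-associated collagen gene Col14a1 (-0.76) and the receptor tyrosine kinase gene Axl (-0.48). These 10 were picked for size and known function after their values were seen.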

How the data were processed

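RNA from 12 sorted samples and 3 ES cell samples was hybridised to Affymetrix arrays after labelling in a double amplification, per the labels' protocols. The deposited values are linear signal intensity, 1 per probe set, made by the authors with MAS5, per the submitters' processing notes; its version, background settings and scaling target are not given in the sources used here, and no detection calls were used. Differences are therefore relative to whatever scaling the arrays had.

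Of 45037 probe sets that are not controls, 34945 carried 1 gene symbol in the platform annotation, 932 several and 9160 none; 34741 were checked through gene IDs against RefSeq and 0 symbols changed. A constant of 12.6, the median of the arrays' 25th percentiles, was added before log2, which understates the change of dim genes. A probe set was kept where its signal exceeded the 50th percentile of the array in 3 or more of the 15, and the brightest single-symbol one stood for each gene, leaving 12408 of 18193 genes and 5785 as dim. A gene could pass through 1 group alone, as Lgr5, Postn and Mir99ahg did through RDL day 6. limma 3.58.1 in R 4.3.3 fitted group means to the 12 sorted arrays (lmFit, eBayes with an intensity trend), two-sided, with Benjamini-Hochberg adjustment over all 12408 genes. The contrast was the mean of the 2 daily CDL minus RDL differences, and a gene was called at an adjusted p under 0.05 with the same sign on both days. The code was run on simulated data with known changes, equal on both days and with independent noise. That setting lacks the deviations shared between arrays that are given below, so it checks the code and not the calls. Figures used matplotlib 3.10.9 in Python 3.11.15.

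Named genes were the 12 largest averaged increases and 12 largest decreases called and without overlap of the media on either day, the reporter genes, and up to 4 called members of each list, passing over clones and predicted genes; others in the text illustrate a list or count and were chosen after their values were seen. The rule, the 36 lists and the members were chosen with earlier results of these data known. The TCF/LEF and metal motifs came with the rule, the others after values were seen; a TCF/LEF core, CTTTGAT or CTTTGAA, was in 8.65% of all windows and is not used further. Same-numbered arrays of the 2 media deviated together in some pairs and not in others. Their r was 0.10, 0.24 and 0.10 at day 4, and 0.61, 0.59 and -0.24 at day 6. Differently numbered pairs ran from -0.15 to -0.02 at day 4 and from -0.64 to 0.54 at day 6. At day 6 CDL replicate 2 also went with RDL replicate 3 (0.54) and CDL replicate 3 with RDL replicate 1 (0.34). The numbers were therefore not taken to pair samples. What those day 6 arrays shared, and its part in the medium difference, was not tested. p-values measure the spread between samples that the labels call biological replicates. Of 51 other probe sets of called named genes, 26 gave the same call, 0 an opposite one and 25 none or a split sign.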

Additional observations from a re-analysis of the deposited data

Results flagged for a closer look

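Among the genes named, 25 had daily medium differences (CDL minus RDL, log2) that differed from each other in the test of medium and day, so that their average stands for unequal days; values below are the day 6 difference minus the day 4 difference, each with an adjusted p from limma under 0.05. Among the genes higher in the average it was 2.98 for Nupr1, 1.68 for Klf4, 1.67 for Slc7a3, 1.53 for Shh, 1.33 for Crabp1 and 1.15 for Hoxb1, all larger at day 6. It was -1.46 for Defa31, -1.41 for Cdh1, -0.95 for Sycp3 and -0.56 for Uap1l1, all larger at day 4.

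Among the genes lower in the average the decrease was larger at day 6 for Asb4 (-2.75), Lum (-2.19), Mir99ahg (-2.18), Prrx1 (-2.03), Dlk1 (-1.93), Col9a1 (-1.52), Cyp26a1 (-0.86), Kdr (-0.82), Mki67 (-0.73) and Sparc (-0.67). The decrease was larger at day 4 for Eya1 (1.05), Met (1.02), Igf2 (0.86) and Mest (0.76). The reporter gene Pax3 had 1.61, with opposite signs on the 2 days. Day differs also in cell line, strain and reporter, and these cannot be told apart.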

How the results depend on the processing

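The count of lower genes was the less stable of the 2. From 342 higher and 280 lower genes, the higher count lay between 245 and 432 and the lower between 188 and 448 on leaving out 1 array, the same-sign count (6697) between 6066 and 7018, and the count that differed between days (494) between 309 and 856. The largest of these, 432, 448 and 856, came without RDL day 6 replicate 1, and the count that differed between days was 309 without RDL day 4 replicate 2 and 318 without CDL day 4 replicate 2. Without that RDL day 6 array and CDL day 4 replicate 1 together, 445 were lower and 897 differed between days. A filter at the 75th percentile, which tests fewer genes, gave 185 lower, 4450 with the same sign and 310 that differed between days. A call on each day alone gave 37 and 27, and a call with at least a 2-fold difference 17 and 24. With the replicate number as a block within each day, 467 were higher and 437 lower, and with the number shared over days 435 and 405; at day 6 number 3 did not deviate together in the 2 media. Fitting all 15 arrays gave 453 and 378.

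A call needs an adjusted p under 0.05 and the same sign on both days. The 24 genes named by size kept theirs in 597 of 598 alternatives, the exception being Mir99ahg over the mean of its probe sets (-0.96, with opposite signs). Over all 83 named genes, 1900 of 2059 alternatives gave the same call and 156 lost it; 26 of 82 called genes lost it on leaving out at least 1 array, and 11 of these left the same-sign set. Among the 26 were Fos (on leaving out any of 10 arrays), Srxn1 (8), Pmaip1 (3), Eya1 (1) and Lum (1). With the mean of probe sets Ptch1, Msx1, Srxn1, Bub1b and Col1a1 lost it too; with 4 times the constant Meox2, Msx1 and Pmaip1; with equal array medians Lgr5, Meox2 and Grem1; with no filter Lgr5, Fos and Smad6; with no intensity trend Fos; with quantile normalization Mki67; and with the filter at the 75th percentile Sycp3. The average of Pax3 (-0.04) turned sign in 3 alternatives, to 0.049 with 4 times the constant, 0.025 without RDL day 6 replicate 2 and 0.017 without CDL day 6 replicate 3, and lay between -0.11 and 0.025 on leaving out 1 array. With 3 arrays a group, signals near the constant of 12.6 limit small differences.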

Other observations

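Some lysosomal genes were among the small increases shared by both days. A list of 62 lysosome genes and a list of 18 vacuolar ATPase genes were written after the values had been seen, so their counts describe these arrays and support nothing further. Of 53 lysosome genes tested, 33 had the same sign on both days, where 54% of all genes did, and 31 of these were positive. On each day alone 5 were called. In the average 13 rose in CDL and 0 fell, where 2.76% and 2.26% of all genes did so, and the median was 0.19, against 0.00 over all genes. They were the hydrolase genes Hexa, Neu1, Tpp1, Dpp7, Ctsz, Ctsl, Asah1 and Man2b1, the membrane protein genes Lamp1, Ostm1 and Tmem192, the cholesterol carrier gene Npc2 and Gnptg, a subunit of the enzyme that tags hydrolases for the lysosome. Of 16 vacuolar ATPase genes, whose pump acidifies the lysosome, 5 rose and 0 fell, and 15 had the same sign on both days, 14 of them positive, where 26.8% of all genes were positive on both. Without CDL day 4 replicate 1 the counts were 12 and 4, and without RDL day 6 replicate 1 as well they were 19 and 8. The lysosomal peptidase gene Ctsc was the 1 of the 69 that differed between days, with 0.44 at day 4 and -1.05 at day 6.

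Hexa, a subunit of beta-hexosaminidase, gave 1212, 1043 and 883 in CDL at day 4, against 496, 586 and 497 in RDL, and 673, 843 and 594 in CDL at day 6, against 303, 491 and 480 in RDL. Its average was 0.85 ± 0.13 (SE; adjusted p = 0.002), without overlap of the media on either day. Atp6ap2, an accessory subunit of the pump, gave 2092, 2223 and 2179 in CDL at day 4, against 1448, 1507 and 1611 in RDL, and 2923, 3478 and 3325 in CDL at day 6, against 2181, 2315 and 2090 in RDL. Its daily differences of 0.51 and 0.56 were alike (average 0.53 ± 0.06, adjusted p = 0.000138). At day 6 every CDL array of Atp6ap2 exceeded its ES level of 2128, 2110 and 2094, while Hexa gave 1269, 1169 and 1328 in ES cells. Elsewhere among the called members of both lists every ES array exceeded every CDL array in Ostm1, Dpp7, Asah1, Tmem192, Atp6v1b2 and Atp6v1c1. The reverse held in Tpp1, Ctsl and Npc2, and the rest overlapped. The part of undifferentiated cells in these differences was not tested beyond leaving out the array named above.

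The promoter of Dpp7 (RefSeq, GRCm38.p6, chr2:25356333-25356582, minus strand, 250 bases before the start) is shown with the palindrome TCACGTGA in capitals, the core of the element through which TFEB-family factors are known to act on lysosome genes.
Dpp7: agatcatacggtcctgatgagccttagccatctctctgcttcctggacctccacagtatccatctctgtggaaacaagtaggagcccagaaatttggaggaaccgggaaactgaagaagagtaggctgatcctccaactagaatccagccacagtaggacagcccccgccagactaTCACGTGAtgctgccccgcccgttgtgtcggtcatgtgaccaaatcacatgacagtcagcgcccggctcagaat
Dpp7 rose by 0.56 ± 0.09 (adjusted p = 0.00247), with 0.60 and 0.52 on the 2 days. Over both lists, 3 of 15 called genes with a window held the palindrome (20%) and 8 of 42 tested genes that were not called (19%), while 2.14% of 9996 tested genes with a window did.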
